A study of Mus musculus with 6 samples.

Results

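The 33 genes described here serve glucose uptake, glycolysis and the response to low oxygen, and were given as a list of names: 2 glucose transporters, 17 glycolytic enzymes (counting Pfkfb3, which makes an activator of phosphofructokinase), 6 genes of lactate and pyruvate handling and 8 hypoxia-response genes. The list, like the other gene lists below, was chosen with earlier results of these data known. All 33 were rows of the count table, which held 25595 genes and 26968 cells. The cells came from stembryos, trunk-like structures grown from wild-type mouse embryonic stem cells that are aggregated and briefly given Chiron, which activates Wnt signalling. Stembryos had been pooled and dissociated 96 h or 120 h after aggregation, giving 2 libraries of whole stembryos per time point. A separate pool at 120 h was cut across, and its anterior and posterior parts were sequenced as 1 library apiece. Those without elongation at 120 h had not been used. No library carried a mutation or a drug arm. The groups differ by time, by body part and, for the dissected pool, by batch. Each cell had a cluster name from the authors: NMPs A, B and C (neuromesodermal progenitors, which give rise to spinal cord and trunk mesoderm), Spinal cord A and B, Early and Late PSM (presomitic mesoderm), Determination front (the level at which segments are laid down), Somite A, Somite B, Endoderm and a cluster of pluripotent and germ cells.

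Glucose enters cells through the transporters of the Slc2a family, is phosphorylated by hexokinases and is split by the enzymes of glycolysis into pyruvate. Lactate dehydrogenase turns pyruvate into lactate, which leaves through the carriers Slc16a1 and Slc16a3, while pyruvate dehydrogenase sends it to the mitochondrion. When oxygen is scarce, the factor whose subunit is encoded by Hif1a is stabilized and binds short DNA elements near many of these genes, and in the vertebrate tail bud transcripts of glycolysis are known to be graded along the body axis.

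The promoters of 4 members are printed, chosen after their values were seen, because these genes had non-overlapping levels in progenitors and presomitic mesoderm: Slc2a1 was lower in the mesoderm, and Ldha, Slc16a3 and Ddit4 were higher. Each is the RefSeq sequence (GRCm38.p6) that ends at the gene's start or, where an annotated exon begins sooner, just before that exon, written 5′ to 3′ on the strand of the gene. Capitals mark ACGTG and GCGTG, the letters at the core of the hypoxia response element, on either strand.
Slc2a1, chr4:119108495-119108710, plus strand: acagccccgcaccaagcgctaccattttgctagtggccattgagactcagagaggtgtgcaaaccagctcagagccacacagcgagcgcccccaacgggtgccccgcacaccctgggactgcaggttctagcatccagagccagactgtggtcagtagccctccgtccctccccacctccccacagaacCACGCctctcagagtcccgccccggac
Ldha, chr7:46845554-46845803, plus strand: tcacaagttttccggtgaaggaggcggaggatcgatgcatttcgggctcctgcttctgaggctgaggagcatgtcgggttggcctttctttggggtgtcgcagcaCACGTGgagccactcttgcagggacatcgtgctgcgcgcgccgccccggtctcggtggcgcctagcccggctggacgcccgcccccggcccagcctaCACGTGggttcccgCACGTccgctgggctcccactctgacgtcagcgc
Slc16a3, chr11:120948817-120949052, plus strand: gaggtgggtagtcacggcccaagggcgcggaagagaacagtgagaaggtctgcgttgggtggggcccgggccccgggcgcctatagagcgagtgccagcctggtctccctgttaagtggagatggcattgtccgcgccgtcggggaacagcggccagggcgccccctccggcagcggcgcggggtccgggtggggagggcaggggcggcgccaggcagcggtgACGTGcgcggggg
Ddit4, chr10:59951835-59952020, minus strand: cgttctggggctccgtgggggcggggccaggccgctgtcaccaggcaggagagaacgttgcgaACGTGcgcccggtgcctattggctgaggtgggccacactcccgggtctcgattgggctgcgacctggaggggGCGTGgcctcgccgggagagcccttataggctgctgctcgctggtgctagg

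The Ldha stretch held 5 matches to ACGTG, of which 4 come from 2 copies of the palindrome CACGTG, since that palindrome counts once on each strand. The Slc16a3 and Ddit4 stretches held 1 match to ACGTG each, and the Slc2a1 stretch held 0 matches to ACGTG and 1 to GCGTG. These stretches are shorter than the 300-base windows counted below. In its window Slc2a1 held 1 match to ACGTG, and Slc16a3 held 2. RefSeq promoters were found for 31 of the 33 members, 45 promoters in all. In windows of 300 bases around the start, ACGTG occurred in 53.3% of them against 19.6% of all 32851 promoters, and GCGTG in 57.8% against 32.4%. CACGTG was in 13.3% of member promoters and 7.15% of all promoters. These matches are descriptions of the letters and were not tested.

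Libraries held 2649 to 7887 cells and 24303317 to 117580506 UMIs, with medians of 8723 to 22811 UMIs per cell and of 1.85 to 2.51% mitochondrial counts. Replicate 1 of both times came from batch 1, replicate 2 of both times from batch 4, and both dissected parts from batch 2, and replicate 2 was made with a later version of the chemistry than the others. The labels do not state that replicates were separate cultures, so p-values measure the spread between these libraries, which may be technical. Levels are CPM, that is, UMI counts scaled to a common library total with TMM factors, and log2 differences are given ± SE. Because UMIs are counted at the 3′ end, levels are compared between cells and not between genes. Libraries shared 0 to 11 cell barcodes in any pair. In the clusters, the summed level of 6 NMP markers was 729 to 1222 CPM in NMPs C and 591 to 928 in Spinal cord A, so that list sets NMPs C only weakly apart. The 5 PSM markers summed to 1033 to 1213 CPM in Late PSM, against 315 to 786 CPM in NMPs C. The 6 somite markers summed to 1469 to 1933 CPM in Somite A and B. In the determination front they summed to 1560 to 1871 CPM, so that list does not set it apart from the somite clusters. Determination front markers summed to 142 to 216 CPM in the determination front and to 3.16 to 5.58 CPM in Somite A.

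At 120 h clusters were compared over 3 pools (the dissected pool with its parts summed, replicate 1 and replicate 2), and values below are given in that order. The authors had made the clusters from the same cells, so the p-values of these comparisons are no independent test and the values in each pool lead. The first comparison asked what distinguished the cells that had entered presomitic mesoderm from the progenitors. Late PSM had far less of both glucose transporters than NMPs C. It had more of a few enzymes, of lactate dehydrogenase A, of the lactate exporter Slc16a3 and of 5 of 8 hypoxia-response genes. The enzyme Hk1 was lower. The calls of the enzymes Pgk1 and Pgam1 and of the hypoxia-response genes Vegfa and Hif1a were lost on leaving out single pools.

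Slc2a1, the main glucose transporter of embryonic cells, stood at 391, 298 and 437 CPM in NMPs C and at 147, 96.5 and 121 CPM in Late PSM. Every pool was lower in Late PSM and the clusters did not overlap (log2 difference -1.59 ± 0.16, edgeR adjusted p = 9.87e-08). Slc2a3, a transporter of high affinity, stood at 142, 183 and 255 CPM in NMPs C and at 23.6, 25.7 and 38.2 CPM in Late PSM (log2 difference -2.69 ± 0.30, edgeR adjusted p = 6.81e-07). The Late PSM level of Slc2a3 was 16.7, 14.0 and 15.0% of that in NMPs C, while Sox2, a progenitor factor, was at 24.6, 16.6 and 15.5%. The Slc2a3 share was thus at or below that of Sox2 in each pool. Nkx1-2, another NMP marker, was at 15.5, 11.5 and 15.5%, below Slc2a3 in the dissected pool and in replicate 1. How much of the Slc2a3 signal in Late PSM is free RNA from other cells was not tested.

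Among the enzymes, Aldoa, an aldolase, was 687, 567 and 600 CPM in NMPs C and 1048, 931 and 967 CPM in Late PSM, without overlap (log2 difference 0.68 ± 0.11, edgeR adjusted p = 0.000104). Hk1, a hexokinase found in most tissues, was 7.29, 10.3 and 12.0 CPM in NMPs C and 4.25, 4.88 and 3.55 CPM in Late PSM (log2 difference -1.15 ± 0.25, edgeR adjusted p = 0.00231). Its Late PSM level in replicate 2 rests on few counts, since 207 of the 211 UMIs of Hk1 and Hk2 there were Hk2. Pgk1 and Pgam1, enzymes of later steps of the pathway, differed by 0.33 and 0.28 on the log2 scale (edgeR adjusted p = 0.0274 and 0.017). Both calls are fragile: Pgk1 was lost without replicate 1 (adjusted p = 0.149) and Pgam1 on leaving out any 1 pool. The other 12 enzymes tested did not pass, with Hk2, the inducible hexokinase, at 0.38 ± 0.17.

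Ldha, the subunit of lactate dehydrogenase that favours making lactate, was 1337, 1050 and 1381 CPM in NMPs C and 2052, 1518 and 1911 CPM in Late PSM (log2 difference 0.55 ± 0.11, edgeR adjusted p = 0.000959). Ldhb, the other subunit, went the opposite way, from 292, 226 and 168 CPM in NMPs C to 147, 134 and 66.6 CPM in Late PSM (log2 difference -0.95 ± 0.11, edgeR adjusted p = 4.57e-07). Neither subunit had overlapping clusters. Slc16a3, a carrier known from cells that export lactate, was 20.1, 25.3 and 33.5 CPM in NMPs C and 76.0, 71.3 and 64.8 CPM in Late PSM (log2 difference 1.57 ± 0.21, edgeR adjusted p = 8.67e-06). Slc16a1, the more widely used carrier, was 36.8, 43.6 and 51.7 CPM in NMPs C and 27.9, 34.0 and 43.5 CPM in Late PSM, lower in each pool (log2 difference -0.37 ± 0.09, edgeR adjusted p = 0.00682). Pdk1, which inhibits pyruvate dehydrogenase, and Pdha1, a subunit of that enzyme, did not pass.

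Ddit4, a stress-induced inhibitor of mTORC1, had the lowest p of the members here. It was 44.2, 59.3 and 56.1 CPM in NMPs C and 139, 189 and 211 CPM in Late PSM (log2 difference 1.76 ± 0.13, edgeR adjusted p = 9.46e-10). Bnip3, a mitophagy receptor, was 13.7, 25.5 and 27.9 CPM in NMPs C and 26.7, 57.6 and 56.9 CPM in Late PSM (log2 difference 1.12 ± 0.21, edgeR adjusted p = 0.000453). The lowest Late PSM value of Bnip3 lay within the NMPs C range, although each pool was higher in Late PSM. P4ha1, a collagen prolyl hydroxylase subunit, was higher by 0.54 ± 0.13 (edgeR adjusted p = 0.00362), Vegfa, the endothelial growth factor, by 0.65 ± 0.17 (edgeR adjusted p = 0.00872) and Hif1a by 0.27 ± 0.07 (edgeR adjusted p = 0.00798). Without replicate 1, Vegfa and Hif1a were no longer called (edgeR adjusted p = 0.13 and 0.322). Hif1a was also lost without replicate 2 (edgeR adjusted p = 0.0614). With G1 cells only, Hif1a, Vegfa, Pgam1 and Slc16a1 were no longer called, and Tpi1 was added. Ndrg1, Egln3 and Ankrd37, which are induced by low oxygen in many cells, did not pass.

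In all, 10 of 32 tested members were higher in Late PSM and 5 lower in edgeR, where 7.65% of the 14366 genes tested were higher and 7.8% lower. Eno2 had too few counts to be tested in the clusters. The median log2 difference was 0.15 over the members and 0.01 over all genes. By role, 3 of 16 enzymes were higher and 1 lower, 2 of 6 lactate and pyruvate genes higher and 2 lower, both transporters lower, and 5 of 8 hypoxia-response genes higher and 0 lower, with a median of 0.43 for the hypoxia-response genes and 0.15 for the enzymes. Of 15 other targets of hypoxia-inducible factors, 7 of the 11 tested were higher and 0 lower, among them Higd1a, a mitochondrial protein, by 1.03 ± 0.11, and Bnip3l, a relative of Bnip3, by 0.28 ± 0.08. This list was also chosen with earlier results of these data known, so it is no independent support for the members. None of the 16 genes of the citric acid cycle was higher and 1 was lower. Without the pool as a block 6 of the 15 members were called: Slc2a1, Slc2a3, Hk1, Aldoa, Slc16a3 and Ddit4, and these 6 passed under all 10 alternatives tried for this comparison.

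**Figure D1:**
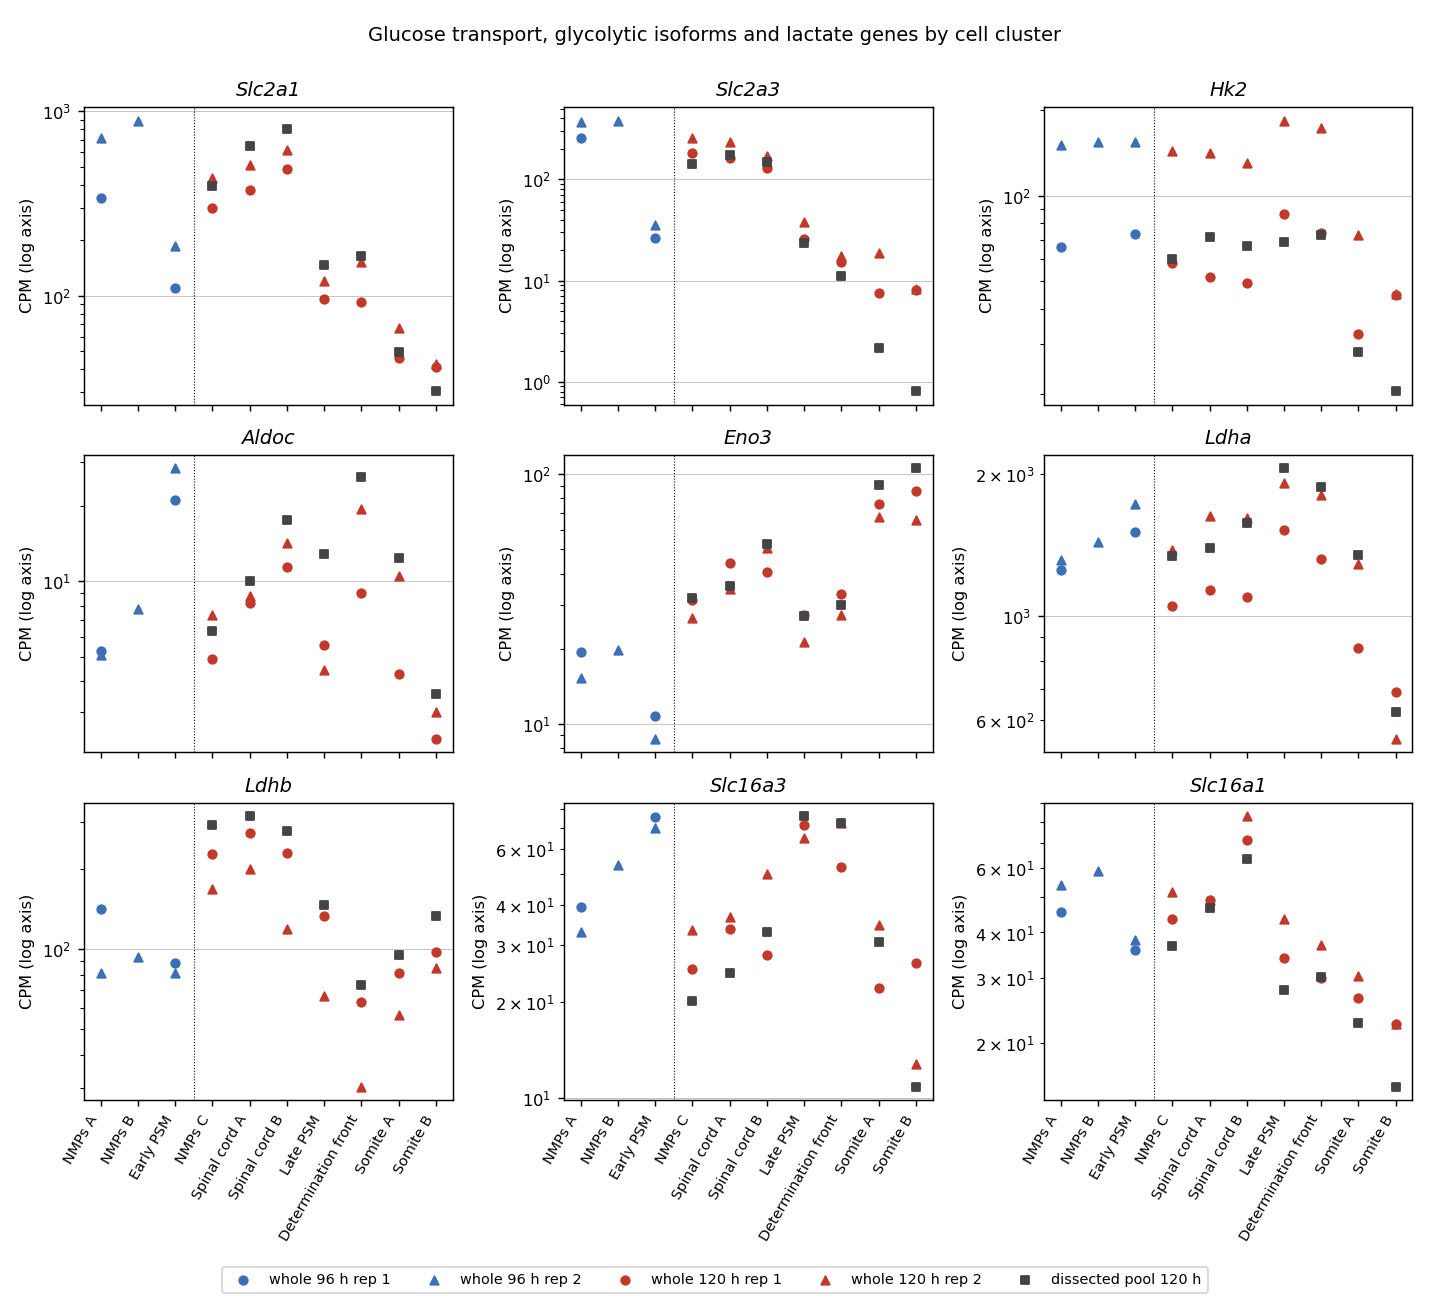
Levels of 9 members (log-scaled CPM axis) in each cluster, 1 point for a library or pool, with blue for 96 h, red for 120 h and grey squares for the dissected pool, circles for replicate 1 and triangles for replicate 2; a dotted line parts the 96 h clusters from those of 120 h, and the Early PSM cells of the dissected pool are not drawn. Slc2a1 stands at 298 to 437 CPM in NMPs C and at 30.5 to 42.9 CPM in Somite B, while within each pool of 120 h Slc16a3 is highest in Late PSM and the determination front and Eno3 in the somite clusters.

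The step from Late PSM to the determination front separated hypoxia-response genes from each other. Ddit4 dropped to 41.4, 71.3 and 68.2 CPM, a range that overlaps that of NMPs C (log2 difference -1.58 ± 0.13, edgeR adjusted p = 1.33e-08). Vegfa, in contrast, was 9.99, 20.5 and 31.1 CPM in Late PSM and 24.2, 46.9 and 46.2 CPM in the determination front, higher in each pool (log2 difference 1.13 ± 0.16, edgeR adjusted p = 1.8e-05). Bnip3, P4ha1 and Hif1a did not pass, so the 5 genes that were higher in Late PSM did not move as 1 group. Ndrg1, a differentiation-linked stress gene, rested on 61, 24 and 5 UMIs in the determination front against 9, 4 and 0 in Late PSM (log2 difference 2.41 ± 0.44, edgeR adjusted p = 0.00036), and was lost without the dissected pool (adjusted p = 0.0569).

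Aldoc, the aldolase of brain, was 12.9, 5.59 and 4.44 CPM in Late PSM and 26.2, 8.95 and 19.4 CPM in the determination front (log2 difference 0.98 ± 0.22, edgeR adjusted p = 0.00263). Ldhb declined further to 72.9, 63.3 and 30.4 CPM (log2 difference -1.04 ± 0.11, edgeR adjusted p = 4.58e-07). Each pool was lower for Ldhb, although the pools of the 2 clusters overlap. Gapdh was higher by 0.17 ± 0.06 (edgeR adjusted p = 0.0424), a call that was lost on leaving out any 1 pool. The transporters did not pass, with Slc2a1 at 165, 92.1 and 152 CPM.

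In this step 4 of 32 members were higher and 2 lower in edgeR, against 7.36% and 7.58% of all genes, with a median of -0.03. The serine and one-carbon enzymes, which branch off from glycolysis, had 4 of 6 higher: Mthfd2 by 0.69 ± 0.23, Phgdh by 0.58 ± 0.17 and Shmt2 by 0.54 ± 0.16 are those above 50 CPM. Without the pool block 2 members were called, Ddit4 and Ndrg1.

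**Figure D2:**
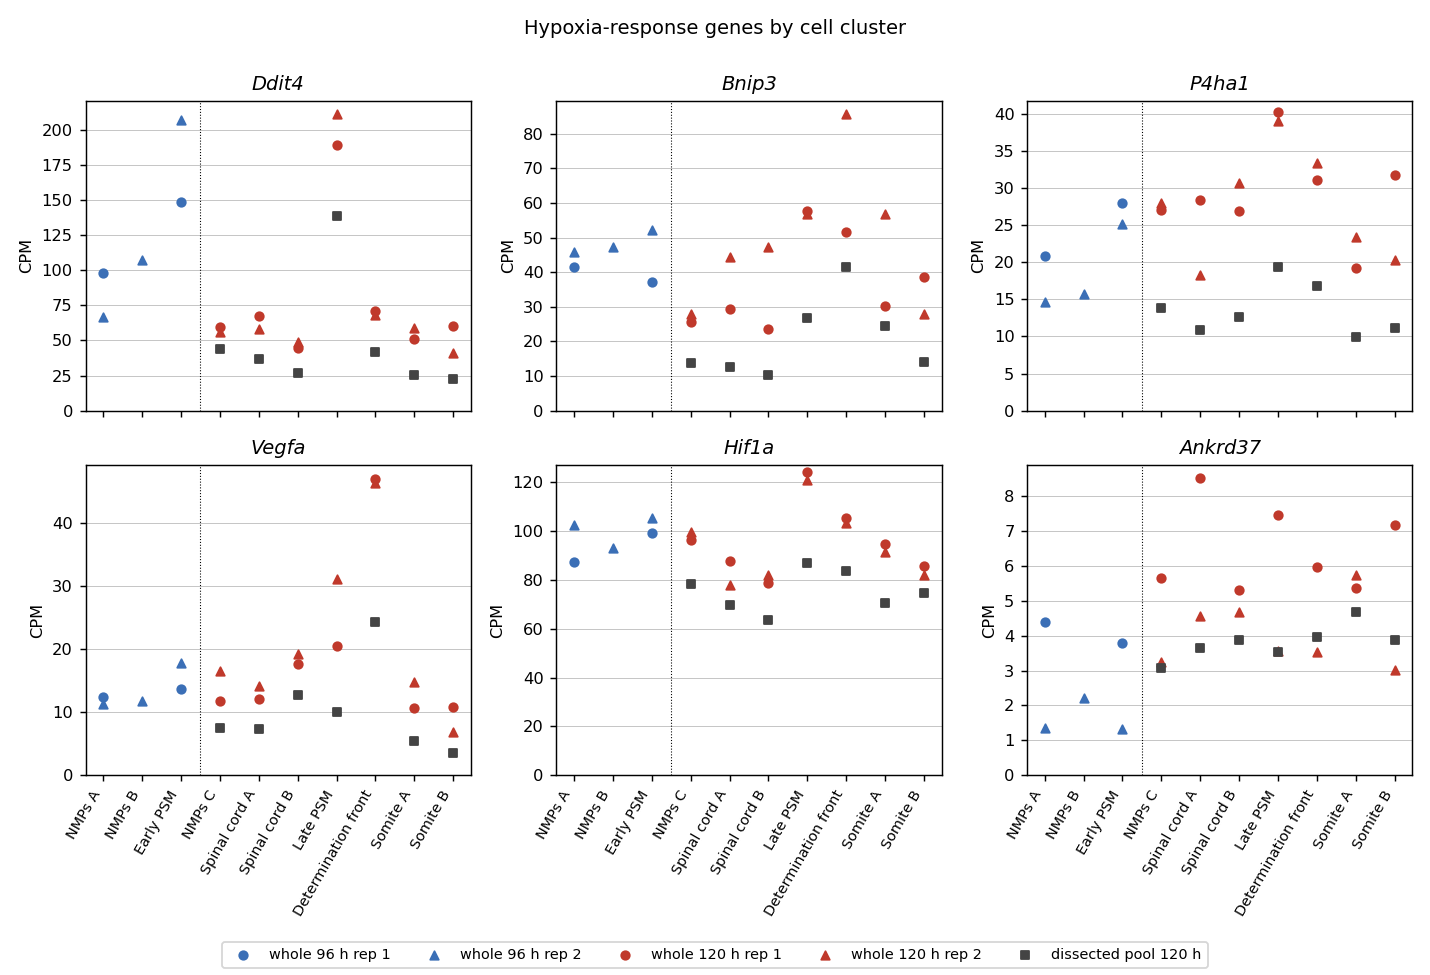
CPM of 6 hypoxia-response members in each cluster, drawn from 0, with 1 point for a library or pool and the colours and shapes of the plot of 9 members. Ddit4 stands at 139 to 211 CPM in Late PSM and at 41.4 to 71.3 CPM in the determination front, where Vegfa reaches 24.2 to 46.9 CPM; the grey squares of the dissected pool lie lowest for P4ha1 in each of the 7 clusters of 120 h.

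Between the determination front and Somite A, the largest number of members was called, and most of those were lower in Somite A. This step also had the largest share of all genes called among the cluster comparisons, 14.4% higher and 14.7% lower. Slc2a1 was 49.4, 46.0 and 67.2 CPM in Somite A, below every determination front value (log2 difference -1.33 ± 0.16, edgeR adjusted p = 1.88e-06). Slc2a3 was 2.14, 7.55 and 18.9 CPM, which is 1.51, 4.12 and 7.41% of its level in NMPs C. Sox2, a gene of progenitors and neural cells, was at 1.69, 4.58 and 7.21% there. Nkx1-2 was at 1.13, 2.86 and 2.86%, below Slc2a3 in each pool. In Somite B Slc2a3 was at 0.572, 4.36 and 3.25%, Sox2 at 0.291, 2.30 and 7.13% and Nkx1-2 at 2.84, 3.55 and 11.7%. How much of the Slc2a3 signal in somites is free RNA from other cells was not tested, and its difference of -1.05 ± 0.40 between Somite A and the determination front did not pass (edgeR adjusted p = 0.0516).

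Hk2 was 72.9, 74.1 and 172 CPM in the determination front and 28.2, 32.7 and 72.6 CPM in Somite A (log2 difference -1.27 ± 0.17, edgeR adjusted p = 8.02e-06). Replicate 2 had more than 2 times the Hk2 level of replicate 1 at both times (2.14 at 96 h and 2.23 at 120 h), so the comparison is best read within a pool, where each was lower in somites. Aldoa was lower by 0.44 ± 0.11, Pgam1 by 0.35 ± 0.08, Pfkl, a phosphofructokinase, by 0.32 ± 0.11 and Aldoc by 1.03 ± 0.19. Their edgeR adjusted p-values were 0.00457, 0.00173, 0.034 and 0.000347.

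Among the enzymes, 3 were higher in Somite A. Eno3, the enolase of muscle, was 29.98, 33.1 and 27.3 CPM in the determination front and 90.8, 76.3 and 67.3 CPM in Somite A, without overlap (log2 difference 1.38 ± 0.12, edgeR adjusted p = 9.33e-09). Pfkm, the phosphofructokinase of muscle, was higher by 0.36 ± 0.14 and Gapdh by 0.16 ± 0.06 (edgeR adjusted p = 0.0496 and 0.0395), and both calls were lost on leaving out any 1 pool.

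Slc16a3 was 72.5, 52.6 and 72.6 CPM in the determination front and 30.6, 22.1 and 34.8 CPM in Somite A, without overlap (log2 difference -1.21 ± 0.21, edgeR adjusted p = 0.000132). Ldha was lower by 0.53 ± 0.11 (edgeR adjusted p = 0.00096) and Slc16a1 by 0.31 ± 0.09 (edgeR adjusted p = 0.013), while Ldhb was higher by 0.45 ± 0.11 (edgeR adjusted p = 0.00342). Vegfa dropped to 5.34, 10.6 and 14.8 CPM, below every determination front value (log2 difference -2.04 ± 0.15, edgeR adjusted p = 1.55e-09). P4ha1, Bnip3, Ddit4 and Hif1a were also lower, by 0.68 ± 0.13, 0.73 ± 0.19, 0.48 ± 0.14 and 0.20 ± 0.07, with edgeR adjusted p-values of 0.000329, 0.00619, 0.0108 and 0.0291. Leaving out any 1 pool ended the call of Hif1a, leaving out replicate 1 or 2 that of Pfkl (adjusted p = 0.0855 and 0.0727), and leaving out the dissected pool or replicate 2 that of Slc16a1 (adjusted p = 0.18 and 0.0519).

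In all, 4 of 32 members were higher in Somite A and 14 lower in edgeR, where 14.4% and 14.7% of all genes were called, with a median of -0.18 against 0.03 over all genes. By role, 3 of 16 enzymes were higher and 5 lower, 1 of 6 lactate and pyruvate genes higher and 3 lower, 1 of 2 transporters lower, and 5 of 8 hypoxia-response genes lower and 0 higher. Of the serine and one-carbon enzymes 4 of 6 were lower, led by Mthfd2 with -1.84 ± 0.23. Immediate early genes, which cell dissociation can induce, moved in the same step: 6 of 9 tested were lower in Somite A (median -1.501), and 3 of 9 were higher in the determination front than in Late PSM. Their part in the results was not tested. Without the pool block 4 members were called, Slc2a1, Eno3, Slc16a3 and Vegfa, and these 4 passed under all 10 alternatives. With G1 cells only 13 members were called: Aldoc, Ddit4, Hif1a, Pfkl, Pfkm and Slc16a1 were lost and Slc2a3 was added.

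Of the 12 members called between Somite B and Somite A, 9 were glycolytic enzymes. Aldoa was 690, 530 and 729 CPM in Somite A and 375, 458 and 341 CPM in Somite B, without overlap (log2 difference -0.70 ± 0.11, edgeR adjusted p = 0.000516). Ldha was 1344, 856 and 1287 CPM in Somite A and 627, 690 and 548 CPM in Somite B, also without overlap (log2 difference -0.85 ± 0.11, edgeR adjusted p = 5.82e-05). The difference was smaller in replicate 1 for both genes. Aldoc was 12.4, 4.27 and 10.5 CPM in Somite A and 3.54, 2.35 and 3.01 CPM in Somite B (log2 difference -1.57 ± 0.26, edgeR adjusted p = 0.000532). Tpi1, Pgk1, Pgam1, Pkm, Gpi1, Eno1 and Gapdh, which act at 7 different steps of the pathway, were lower by 0.25 to 0.51 on the log2 scale, with edgeR adjusted p-values from 0.000677 for Pkm to 0.0304 for Eno1. Of these 7, Tpi1 was lower in 2 of 3 pools, at 353 and 354 CPM in replicate 1, and the other 6 were lower in each pool. Slc16a1 was lower by 0.43 ± 0.10 and Ldhb higher by 0.41 ± 0.11 (edgeR adjusted p = 0.0115 and 0.0303).

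In this comparison 1 of 32 members was higher and 11 lower in edgeR, against 2.36% and 2.16% of all genes, with a median of -0.32 over the members and 0.00 over all genes. The 11 lower members were 9 of 16 enzymes and 2 of 6 lactate and pyruvate genes, while 0 of 8 hypoxia-response genes were called in either direction by edgeR (2 had an unadjusted p under 0.05, and 0 of the 8 were called by DESeq2). The count depends on single pools: 4 members were called without the dissected pool, 4 without replicate 2 and 19 without replicate 1. Ldha, Pkm and Aldoa or Aldoc were among the 4 each time: Aldoa was not called without replicate 2 (adjusted p = 0.0514) and Aldoc not without the dissected pool (adjusted p = 0.0649). Without the pool block only Aldoa passed. Replicate 2 held 127 Somite B cells. Markers of other cell types moved with this comparison: 3 heart markers summed to 1.13, 0.493 and 0.164 CPM in Somite A and to 17.4, 3.17 and 2.26 CPM in Somite B, nearly all of it Tnnt2, while Myl7 was at 0 in each pool of both clusters. The 4 endothelium markers summed to 3.20, 4.43 and 3.78 CPM in Somite A and to 8.44, 9.99 and 4.51 CPM in Somite B, with Cdh5 at 0 outside the dissected pool. Their part in the result was not tested.

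Between Spinal cord A and NMPs C 0 of 32 members were called by edgeR, where 0.397% of all genes were higher and 1.23% lower; 8 members had an unadjusted p under 0.05, and DESeq2 called 2, Gapdh and Gpi1. In the values of the single pools, 18 of 33 members were higher in Spinal cord A in each of 3 pools. Among them were Slc2a1, Gapdh, Gpi1, Tpi1, Pgk1 and Pkm, while 2, Hif1a and Ndrg1, were lower in each pool. How many of all genes were higher or lower in each pool was not counted, so these counts have no background to be read against. Slc2a1 stood at 650, 374 and 510 CPM in Spinal cord A and at 796, 484 and 616 CPM in Spinal cord B, the highest means of the clusters compared at 120 h, next to 728 CPM in the 184 endoderm cells of the dissected pool. The ranges of NMPs C and of both spinal cord clusters overlap for Slc2a1. The summed spinal cord markers of NMPs C, at 172 to 292 CPM, spanned those of Spinal cord A, at 216 to 284 CPM. That list therefore does not set these clusters apart.

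Between Spinal cord B, whose summed spinal cord markers were higher at 464 to 645 CPM, and Spinal cord A, with 216 to 284 CPM, 4 of 32 members were higher and 1 lower in edgeR, against 4.47% and 3.37% of all genes, with a median of -0.01. Slc16a1 was 46.6, 49.0 and 49.0 CPM in Spinal cord A and 63.5, 71.3 and 82.9 CPM in Spinal cord B, without overlap (log2 difference 0.55 ± 0.09, edgeR adjusted p = 0.000179). It was also 108 CPM in endoderm. Aldoc, Eno3 and Vegfa were higher by 0.78 ± 0.22, 0.42 ± 0.12 and 0.59 ± 0.18 and Ldhb lower by 0.36 ± 0.10, with edgeR adjusted p-values of 0.0324, 0.0388, 0.04 and 0.0296. All but Slc16a1 were lost on leaving out at least 1 pool: Aldoc and Eno3 without the dissected pool (adjusted p = 0.251 and 0.39) or replicate 2, Vegfa on leaving out any 1 pool, and Ldhb without replicate 2 (adjusted p = 0.282). Eno3 was higher in 2 of 3 pools and lower in 1 (log2 difference -0.12), while Aldoc and Vegfa were higher and Ldhb lower in each pool. No member passed without the pool block.

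**Figure D3:**
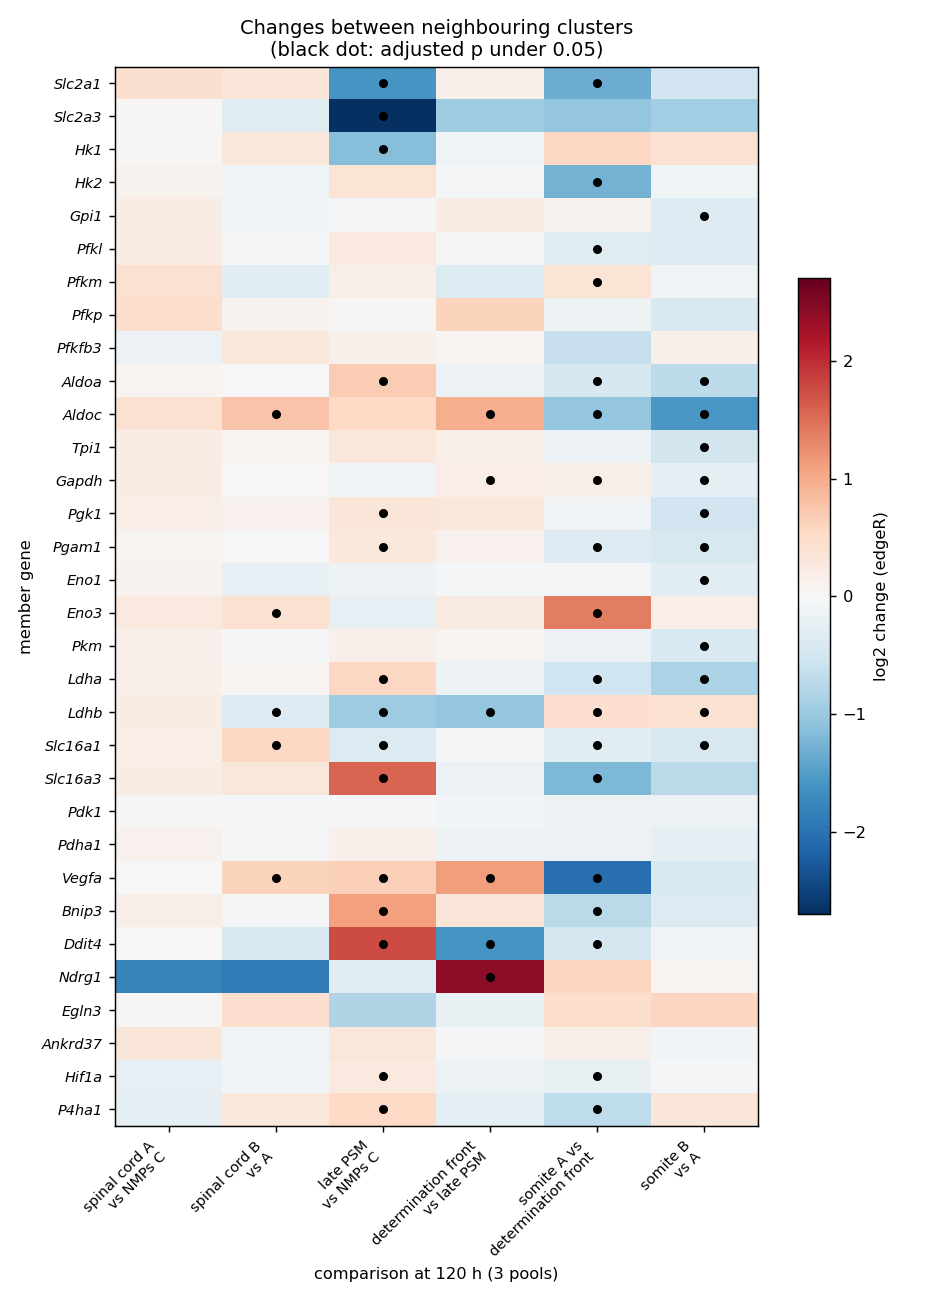
Log2 differences (colour, red higher and blue lower in the cluster named first) of the 32 members tested in 6 comparisons between clusters at 120 h, grouped by role, with a black dot where the edgeR adjusted p was under 0.05. Both transporters are blue in Late PSM against NMPs C, where 5 hypoxia-response members carry a dot, while the 9 dotted enzymes of Somite B against Somite A are all blue.

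Paralogs of the same step changed their shares across clusters. The shares are given without a test, as mean ± SD over the 3 pools of 120 h. Ldhb made up 15.5 ± 4.04% of Ldha and Ldhb UMIs in NMPs C, 6.04 ± 2.42% in Late PSM, 3.33 ± 1.51% in the determination front, 6.47 ± 2.23% in Somite A and 14.4 ± 2.74% in Somite B. Within each pool the determination front had the lowest share of the clusters compared. Slc16a3 made up 37.1 ± 2.03% of both carriers in NMPs C, 66.9 ± 6.70% in Late PSM, 66.8 ± 3.51% in the determination front and 52.1 ± 6.14% in Somite A. At 96 h it was 66.2 ± 2.11% in Early PSM (n = 2 libraries), within the range of Late PSM. Eno3 made up 3.67 ± 1.01% of the enolases in NMPs C and 13.5 ± 1.45% in Somite B. Eno1 shares sequence with the near-copy row Eno1b, at 5.06 to 18.7 CPM in the 6 libraries, so reads of Eno1 could be split between them.

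These shares can be compared between clusters, but not read as the ratio of the genes' transcripts. The highest mean share of Aldoc among aldolase UMIs was 2.498 ± 0.0983% in Early PSM at 96 h (n = 2). The mean share of Hk2 among hexokinase UMIs ran from 82.4 ± 11.6% in Somite B to 96.0 ± 2.28% in the determination front over the clusters compared at 120 h. Pfkp, the platelet type, stayed at mean shares of 0.639 to 1.13% of phosphofructokinase UMIs over the clusters compared at 120 h. Eno2, the enolase of neurons, reached at most 1.54 CPM (16 UMIs) in the clusters compared and did so in the determination front of replicate 1.

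The 6 tested members that no comparison of clusters called were Ankrd37, Egln3, Pdha1, Pdk1, Pfkfb3 and Pfkp. Pdha1 lay between 53.4 and 98.2 CPM and Pdk1, the kinase that inhibits it, between 10.7 and 26.8 CPM over the 21 cluster and pool values. The others were low: Ankrd37 was at 3.01 to 8.54 CPM, Egln3 at 0.880 to 5.68 CPM, Pfkfb3 at 1.505 to 8.80 CPM and Pfkp at 0.478 to 3.55 CPM. Some of these values rest on 2 UMIs, so a difference in these genes was not detectable at this depth unless it was large.

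**Figure D4:**
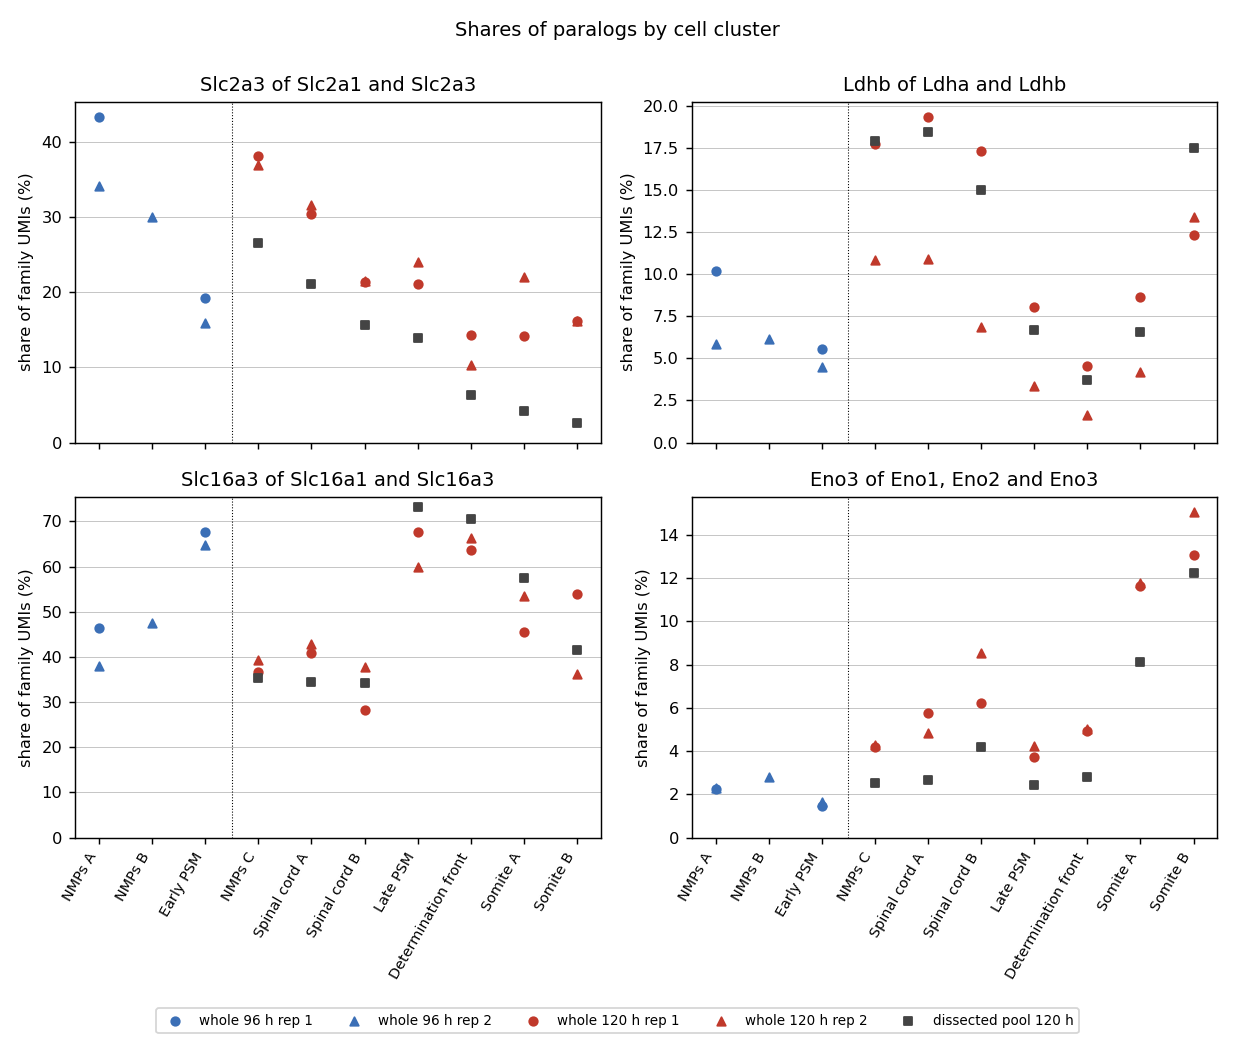
Share of family UMIs (percent) of Slc2a3, Ldhb, Slc16a3 and Eno3 in each cluster, 1 point for a library or pool with the colours and shapes of the plot of 9 members. Within each pool of 120 h the Ldhb share is lowest in the determination front, the Slc16a3 share highest in Late PSM and the determination front, and the Eno3 share highest in the somite clusters; points of different pools overlap between clusters.

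Over time in whole stembryos, fewer cells of a type and less RNA per cell cannot be told apart. Eno3 was the 1 member of 33 called by edgeR without a block, where 0.845% of all genes were called. At 96 h it stood at 16.2 and 16.7 CPM in replicates 1 and 2, and at 120 h it stood at 48.8 and 42.4 CPM (log2 change 1.47 ± 0.13, edgeR adjusted p = 0.0269), and its share of the enolases was 1.95% (95% Wilson interval 1.86 to 2.04) and 2.53% (2.30 to 2.78) at 96 h and 6.83% (6.63 to 7.04) and 7.18% (6.80 to 7.58) at 120 h. These intervals cover counting error only. Without replicate 1 at 120 h the call was lost (adjusted p = 0.0503). Somite A, in which Eno3 was high, had 1 cell in each 96 h library and 1174 and 643 cells in the 120 h libraries.

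With the replicate number as a block, which here is the batch, 5 members rose and 8 fell in edgeR, against 8.89% and 8.15% of all genes. Slc2a3 was 166 and 303 CPM at 96 h, against 89.3 and 145 CPM at 120 h (log2 change -0.98 ± 0.08, edgeR adjusted p = 0.000434). Slc2a1 was 250 and 703 CPM at 96 h, against 190 and 345 CPM at 120 h, lower in both batches although the times overlap (log2 change -0.71 ± 0.14, edgeR adjusted p = 0.0154). Ddit4 was 122 and 123 CPM at 96 h, against 70.9 and 63.5 CPM at 120 h (log2 change -0.87 ± 0.08, edgeR adjusted p = 0.000709). Pdha1, the subunit of pyruvate dehydrogenase, was 131 and 118 CPM at 96 h, against 68.2 and 78.3 CPM at 120 h (log2 change -0.77 ± 0.10, edgeR adjusted p = 0.00256). For Slc2a3, Ddit4 and Pdha1 the times did not overlap. The 11 immediate early and heat shock genes summed to 189 and 142 CPM at 96 h, against 125 and 111 CPM at 120 h, and 4 of 11 fell with the block in whole libraries and 4 of 11 in NMP cells. Their part in these changes was not tested.

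Slc16a3 fell from 55.7 and 54.0 CPM to 33.2 and 41.3 CPM with the block (log2 change -0.57 ± 0.11, edgeR adjusted p = 0.0103), and Egln3, a prolyl hydroxylase that marks the hypoxia factor for decay, from 4.54 and 6.29 CPM to 2.51 and 2.97 CPM (log2 change -0.96 ± 0.19, edgeR adjusted p = 0.0132). Hk2 and Aldoa fell by 0.32 ± 0.08 and 0.34 ± 0.09 (edgeR adjusted p = 0.0324 and 0.0359). Besides Eno3 the rises were those of Ldhb, Vegfa, Ankrd37 and Ndrg1, by 0.36 ± 0.08, 0.48 ± 0.11, 0.79 ± 0.21 and 2.00 ± 0.40 (edgeR adjusted p = 0.0193, 0.0237, 0.0404 and 0.0146). Ndrg1 was 0.325 and 0.478 CPM at 96 h, against 1.76 and 1.15 CPM at 120 h, and rested on as few as 12 UMIs in a library. The blocked fit leaves 1 residual degree of freedom, so its p-values draw mostly on a spread that is estimated across genes. Hif1a was 94.4 and 95.2 CPM at 96 h, against 98.4 and 92.0 CPM at 120 h.

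Within progenitors NMPs A and B at 96 h were set against mostly NMPs C at 120 h, that is, different clusters. The 96 h replicates also differ, with 2765 NMPs A and 43 NMPs B cells in replicate 1 and 315 and 1632 in replicate 2, so the spread at 96 h includes a difference between clusters. No member was called by edgeR without a block (9 had an unadjusted p under 0.05, and DESeq2 called 2, Bnip3 and Ddit4), where 0.00642% of all genes were called. With the block 3 rose and 5 fell, against 3.65% and 3.55% of all genes. Ddit4 was 102 and 102 CPM at 96 h, against 61.1 and 56.6 CPM at 120 h (log2 change -0.79 ± 0.09, edgeR adjusted p = 0.0059). Bnip3 was 42.7 and 47.6 CPM at 96 h, against 26.2 and 28.4 CPM at 120 h (log2 change -0.73 ± 0.09, edgeR adjusted p = 0.00909). Ldhb was 147 and 93.3 CPM at 96 h, against 233 and 172 CPM at 120 h (log2 change 0.77 ± 0.09, edgeR adjusted p = 0.00757). In these 3 genes the times did not overlap. Slc2a3, Slc16a3 and Pdha1 fell by 0.53 ± 0.09, 0.61 ± 0.09 and 0.66 ± 0.13, and Hk1 and Eno3 rose by 0.70 ± 0.16 and 0.62 ± 0.11 (edgeR adjusted p = 0.0191, 0.0162, 0.0367, 0.0474 and 0.0271).

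Within presomitic mesoderm, which was Early PSM at 96 h and mostly Late PSM at 120 h, 1 of 31 tested members was called by edgeR without a block, where 0.433% of all genes were called. Aldoc was 21.5 and 28.5 CPM at 96 h, against 5.85 and 8.35 CPM at 120 h (log2 change -1.91 ± 0.28, edgeR adjusted p = 0.0493), with 12 UMIs in the lowest library, and was lost without replicate 1 at 120 h (adjusted p = 0.315). With the block 3 rose and 2 fell, against 3.66% and 3.23% of all genes. Pdha1 was 135 and 140 CPM at 96 h, against 80.3 and 80.7 CPM at 120 h (log2 change -0.77 ± 0.10, edgeR adjusted p = 0.00218). Eno3, Vegfa and P4ha1 rose by 1.27 ± 0.18, 0.67 ± 0.17 and 0.58 ± 0.13 and Aldoc fell by 1.84 ± 0.20 (edgeR adjusted p = 0.00294, 0.0433, 0.0299 and 0.000761). The 2 hypoxia-response genes that fell in progenitors did not do so here: Ddit4 was 150 and 207 CPM at 96 h, against 190 and 214 CPM at 120 h, and Bnip3 37.3 and 52.2 CPM and then 57.9 and 52.2 CPM.

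The difference between both changes was tested as an interaction, in which 4 of 31 members were higher and 1 lower in edgeR, where 1.56% of all genes were called. The change in presomitic mesoderm exceeded that in progenitors by 1.12 ± 0.15 for Bnip3 (edgeR adjusted p = 0.000152) and by 0.96 ± 0.13 for Ddit4 (edgeR adjusted p = 0.000194), and lay below it for Aldoc, with -1.76 ± 0.24 (edgeR adjusted p = 0.00025). Aldoa and Tpi1 differed by 0.38 ± 0.07 and 0.41 ± 0.08 (edgeR adjusted p = 0.00472 and 0.0059). With the replicate number as block in place of the library, Aldoc, Bnip3 and Ddit4 were still called (edgeR adjusted p = 0.0119, 0.0281 and 0.043). Aldoa and Tpi1 were not called. Leaving out each library in turn, an alternative chosen after seeing the data, kept Ddit4 each time. Without replicate 1 at 120 h Ddit4 was the 1 member called (edgeR adjusted p = 0.033), with adjusted p-values of 0.106 for Aldoc, 0.204 for Bnip3, 0.0713 for Aldoa and 0.095 for Tpi1. Leaving out replicate 2 of 96 h ended the calls of Aldoa and Tpi1 as well (adjusted p of 0.227 and 0.28 in edgeR). Leaving out replicate 1 of 96 h gave 9 members, adding Slc2a1, Hk2, Ldhb and Slc16a3.

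**Figure D5:**
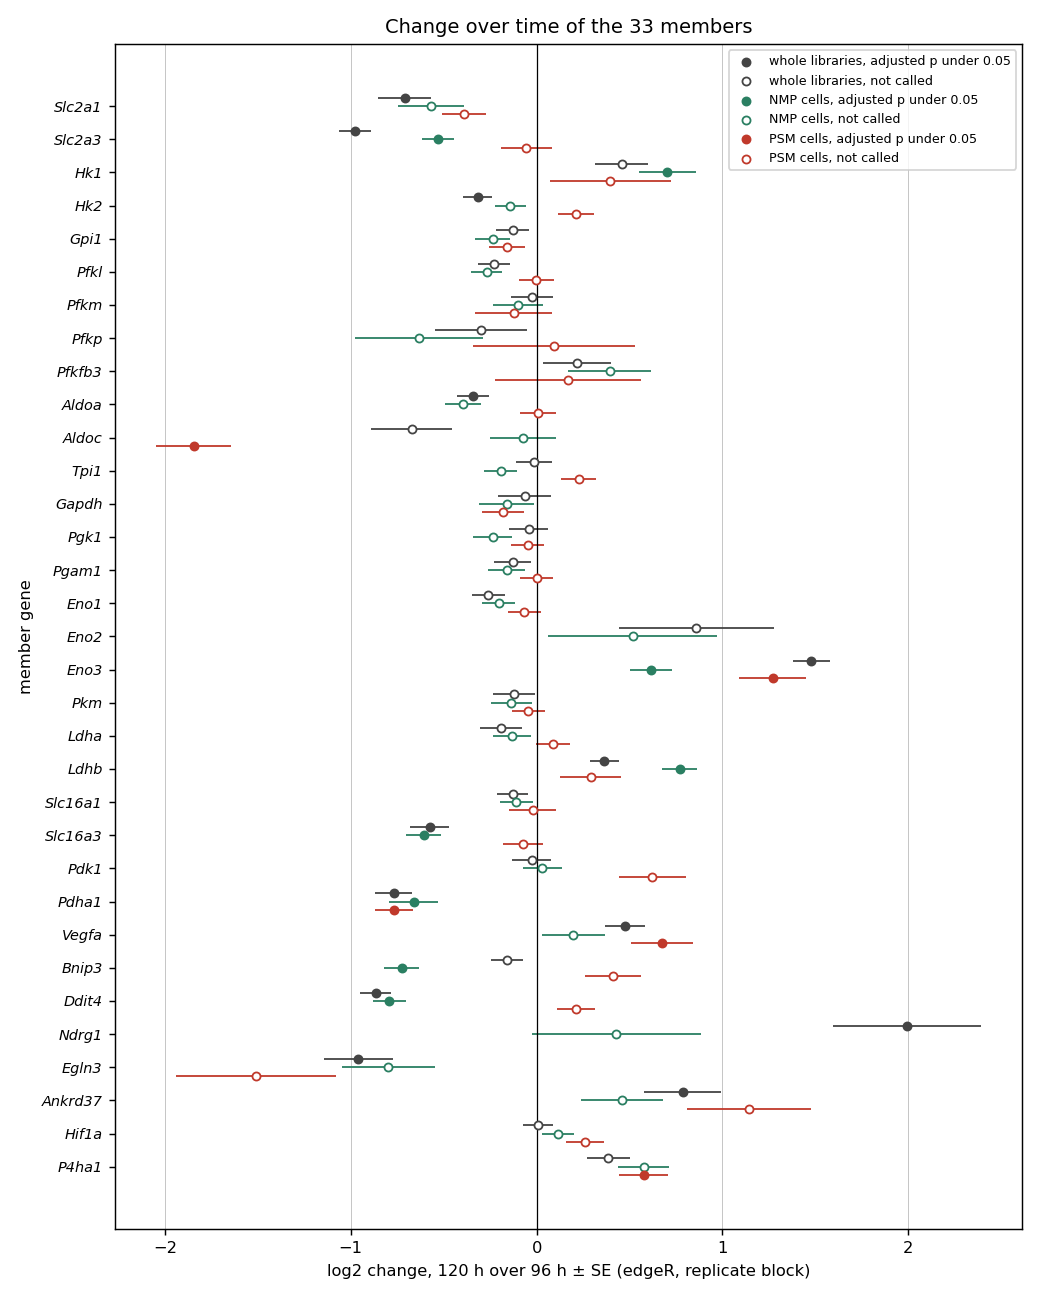
Log2 change from 96 h to 120 h of each member with the replicate block (points, bars ± SE) in whole libraries (dark grey), NMP cells (green) and PSM cells (red), filled where the edgeR adjusted p was under 0.05. Ddit4 and Bnip3 lie at -0.79 and -0.73 in NMP cells, and Eno3 is filled at 1.48, 0.62 and 1.27 in whole libraries, NMP cells and PSM cells.

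The dissected pool gives a split that did not come from the clustering, with 1 library for each part and no replicate. The parts hold almost separate cell types: 47.7% of anterior cells were Somite A and 44.5% Somite B, against 0.862% and 0.0127% of posterior cells, and the anterior part had 0 cells of NMPs C and of Late PSM. Of 33 members 9 were higher in the posterior part by at least 0.5 on the log2 scale and 2 in the anterior part, where 15.8% and 18.6% of all 16641 genes passed that fold. Slc2a1 was 458.5 CPM in the posterior part and 45.7 CPM in the anterior part, a log2 difference of 3.32, and Slc2a3 was 115 and 1.89 CPM (13114 and 104 UMIs), a log2 difference of 5.91. Hk2 was 66.3 and 25.7 CPM, Vegfa 11.5 and 5.08 CPM, Ldhb 237 and 105 CPM, and Ddit4 52.3 and 24.8 CPM. Ldha, Slc16a1 and Slc16a3 were higher in the posterior part by 0.61, 1.08 and 0.81. Eno3 was 33.2 CPM in the posterior and 90.4 CPM in the anterior part, and Ndrg1 0.717 and 4.68 CPM.

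By role both transporters and 4 of 6 lactate and pyruvate genes were past the fold in the posterior part, but of 17 enzymes 1 was higher in each part. Most enzymes thus stayed under that fold, with a median log2 difference of 0.21 over the enzymes and -0.01 over all genes. Gapdh was 4731 CPM in the anterior and 4643 CPM in the posterior part, and Tpi1 494 and 474 CPM. Aldoa, at 538 and 722 CPM, and Eno1, at 874 and 1158 CPM, were higher in the posterior part. Pgk1 was lower there, at 815 and 690 CPM. Immediate early genes summed to 136 CPM in the anterior and 210 CPM in the posterior part, and their part in these values was not tested. Within the determination front cells of both parts, Slc2a1 was 108 CPM in the anterior and 177 CPM in the posterior part, Vegfa 15.7 and 26.0 CPM and Eno3 41.7 and 26.2 CPM. The direction in these cells was that of the whole parts for those 3 genes. Ddit4, at 45.4 and 39.5 CPM, and Slc16a1, at 32.5 and 29.0 CPM, had the opposite order to the whole parts in these cells. Ldha differed little there, at 1782 and 1854 CPM. Within Somite A, with 1881 anterior and 68 posterior cells, Slc2a1 was 46.4 CPM in the anterior and 144 CPM in the posterior part, Vegfa 5.06 and 14.1 CPM, Eno3 92.2 and 42.2 CPM and Ddit4 25.3 and 32.0 CPM. These were in the order of the whole parts, with 113, 11, 33 and 25 posterior UMIs. Ldhb was level at 94.4 and 94.6 CPM, and Ndrg1 had the opposite order at 4.62 and 5.11 CPM (4 posterior UMIs). Slc2a3 was 1.45 and 24.3 CPM. How much of these levels is free RNA from other cells of the same part was not tested.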

How the data were processed

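UMI counts per gene and cell, in libraries of the 10x platform, were the deposited values. The submitters' processing notes name mm10, Cell Ranger 6.0 and Seurat 4.0.2, of which the methods give the former for alignment and counting and the latter for filtering and annotation. The authors' annotation gave the mitochondrial percent, batch, phase and cluster of each cell. Doublets had been treated by the authors through a UMI ceiling, and no caller was run here.

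Counts were summed per library, or per library and cluster (at least 50 cells), and tested with edgeR 4.0.16 in R 4.3.3: TMM, filterByExpr, the quasi-likelihood test and Benjamini-Hochberg adjustment over all genes, called under 0.05. Times were compared without a block and clusters with the pool as a block. The interaction of cell class and time had the library as a block. Equal replicate numbers mark a shared batch in the authors' annotation, and deviations correlated between times with r = 0.567 over 18114 genes (0.541 in NMP and 0.429 in PSM sums). They therefore pair the samples. Blocked values are printed where they change a call. CPM use TMM factors. The script was tested on simulated data.

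The members and lists were chosen with earlier results of these data known. All 33 members were accounted for: those called got values in every library or pool, or their change where several are grouped, and of other lists genes above 50 CPM with the 3 largest changes were named. Alternatives were DESeq2 1.42.0, RLE or no factors, no count filter, G1 cells only, cells up to 1.5 times the mean UMIs, no pool block and leaving out each library or pool.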

Additional observations from a re-analysis of the deposited data

Results flagged for a closer look

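For 5 members the change over time differed between presomitic mesoderm and progenitors by the interaction test of edgeR. The change in PSM minus that in NMP cells was 1.1175 for Bnip3, 0.9616 for Ddit4, 0.4064 for Tpi1, 0.3834 for Aldoa and -1.7582 for Aldoc on the log2 scale, and each compares different clusters at the 2 times. Ddit4 alone stayed past the threshold without each single library.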

How the results depend on the processing

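No member reversed its direction past the test under any alternative. The number of members called moved as follows. With the replicate block it was 13 in whole libraries (1 without), 8 in NMP cells (0 without) and 5 in PSM cells (1 without). For the interaction it was 3 with the replicate number as block and 5 with the library as block. DESeq2 called 4, 2 and 2 members in whole libraries, NMP and PSM cells, 2 in Spinal cord A against NMPs C and 3 in Spinal cord B against A. Without the count filter 5, 7 and 3 were called in whole libraries, NMP and PSM cells and 8 for the interaction, and without normalization factors 0 in PSM cells and 1 in Spinal cord A. RLE factors and G1 cells only each called 1 in Spinal cord A, and the UMI limit 3 in Spinal cord B. G1 cells only called 12 in Late PSM (15 with all cells) and 13 in Somite A (18). Without the pool block the counts were 6 in Late PSM (15 with it), 2 in the determination front (6), 4 in Somite A (18), 1 in Somite B (12) and 0 in Spinal cord B (5). Leaving out 1 library or pool at a time gave 0 to 1 in whole libraries, 0 to 0 in NMP cells, 0 to 3 in PSM cells, 13 to 15 in Late PSM, 0 to 1 in Spinal cord A, 5 to 7 in the determination front, 14 to 16 in Somite A, 4 to 19 in Somite B and 1 to 6 in Spinal cord B. Where a time was left with 1 library, it was assumed to vary like the other. For the interaction, leaving out 1 library at a time (chosen after seeing the data) gave 1 to 9 members, and leaving out a whole replicate number could not be fitted, because no residual degree of freedom was left. The cause of these shifts was not tested.

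Over all genes, the block called 3088 in whole libraries (153 without), 1122 in NMP cells (1) and 828 in PSM cells (52). Without normalization factors the median of all genes in PSM cells was 0.11 on the log2 scale, and the calls were 97 higher and 25 lower in whole libraries (105 and 48 in the reported fit), 46 and 11 in PSM cells (36 and 16), 13 and 319 in Spinal cord A (57 and 176) and 440 and 203 in Somite B (339 and 311). Low counts limit Ndrg1, Egln3, Ankrd37, Pfkp, Pfkfb3, Eno2 and, in Late PSM, Hk1, and 2 or 3 libraries limit each comparison.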
